A study of Mus musculus with 12 samples.

Results

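The 9 genes described here encode adhesion and retention proteins of CD8 T cells: the integrin chains Itgae (αE, CD103), Itga1 (α1, CD49a), Itga4 (α4), Itgal (αL), Itgb1 (β1), Itgb7 (β7) and Itgb2 (β2), the activation antigen Cd69 and the hyaluronan receptor Cd44. Of the 32285 genes of the deposited tables, 18694 had at least 1 UMI (unique molecular identifier, 1 count per captured transcript) in a cell used here. The 9 genes were chosen by name, with earlier results of these data known. RNA of each was measured by 10x 5′ single-cell RNA-seq, with paired T cell receptor (TCR) sequencing, in CD8 T cells of prediabetic female NOD mice, a strain that develops autoimmune diabetes.

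The 3 groups had 2 libraries each. Islet IGRP+ and spleen IGRP+ cells bound the NRP-V7/Kd tetramer, which marks CD8 T cells specific for a peptide of the β cell protein IGRP, and islet IGRP- cells were the CD8 T cells of the same islets that did not bind it. Each of the 2 rounds pooled islets and spleens from 10 mice aged 10 to 15 weeks, so a library is a pool, the 3 libraries of a round come from the same mice, and no value belongs to a single mouse. The mice carried no transgene and received no treatment. Islets were digested with collagenase P for 16 min and their cells held for 1 h at 37 °C, whereas spleens were dissociated mechanically, lysed of red cells and enriched for CD8 T cells on beads. In addition, the spleen tetramer gate was placed at high CD44 surface staining, and the islet gates were not. Tissue, tissue handling and the CD44 gate therefore cannot be told apart in any comparison of islet with spleen, least of all for Cd44 itself.

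Integrins are paired α and β chains that bind matrix proteins or counter-receptors on other cells. αEβ7 binds E-cadherin of epithelia, and α1β1 binds collagen; both are widely used as markers of T cells that stay in a tissue. α4β1 binds VCAM-1 and α4β7 binds MAdCAM-1 on vessels, and αLβ2 (LFA-1) binds ICAM-1 during arrest on endothelium and contact with target cells. CD69 is induced rapidly after T cell activation and pulls the egress receptor S1PR1 from the cell surface. CD44 binds hyaluronan and stays high after antigen experience.

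After removal of cells with 5% or more mitochondrial UMIs and cells outside the limits on genes per cell, 24117 of 26818 cells were kept, 1204 to 8932 per library, with a median of 2590 to 4217 UMIs per cell. Spleen libraries were the shallowest, at a median of 2590 and 2765 UMIs per cell. Markers of CD8 T cells were present: Cd8a stood at 537 to 945 CPM (UMIs per 1000000 UMIs of the library) in the 6 libraries, Cd4 at no more than 0.173 CPM, and 102 kept cells (0.423%) had no UMI of a Cd3 or Cd8 gene. A UMI of these genes does not show that a cell is a T cell, and cells with exocrine RNA were among those kept from the islets. The background that free RNA adds to a share of cells with a UMI was not measured. Between 2 and 64 cell barcodes were shared by any pair of libraries, at most 1.03% of the smaller library. All 9 members had higher CPM in round 2 than in round 1 in both islet groups, and 8 of 9 did in the spleen. The share of all genes higher in round 2 is not given here, so these counts are no result about the members. The 2 libraries of a group came from different rounds, so the spread between them is the difference between rounds by design.

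The members lie on separate parts of the genome (GRCm38, GENCODE vM21). Itgae is at chr11:73090583-73147446 on the plus strand, Itga1 at chr13:114953096-115101964 on the minus strand, Itga4 at chr2:79255426-79333123 on the plus strand and Itgal at chr7:127296260-127335138 on the plus strand. Itgb1 is at chr8:128685654-128733200 on the plus strand, Itgb7 at chr15:102215995-102231944 on the minus strand, Itgb2 at chr10:77530252-77565708 on the plus strand, Cd69 at chr6:129267325-129275436 on the minus strand and Cd44 at chr2:102811141-102901665 on the minus strand. Pelo and Gm49395 overlap Itga1 on the same strand, and Haspin lies within Itgae on the opposite strand. How reads shared by overlapping genes were counted is not given in the sources used here, so the Itga1 counts are uncertain to that extent.

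Clones in these data are named by the nucleotide sequences of their TCR CDR3 regions, the most variable part of each chain, and the within-clone comparisons rest on those sequences. Cells with identical α and identical β CDR3 sequences were taken as 1 clone, and 66 clones (31 in round 1, 35 in round 2) were found in both islet IGRP+ and spleen IGRP+ cells of a round. Of these, 65 used TRAV16N, 47 used TRBV13-3, and 27 carried the same α CDR3 of 45 bases. Shown first are the β CDR3 sequences of the first pair of clones by cell number in each round and of the 3 clones whose islet cells had the highest Itgae level in round 2 among clones with at least 10 cells in each tissue, the last chosen after their values were seen. Capitals mark the bases that follow the 11 bases common to all 7.
R1-1 β: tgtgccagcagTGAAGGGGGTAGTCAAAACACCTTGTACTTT
R1-2 β: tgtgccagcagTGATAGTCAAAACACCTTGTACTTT
R2-1 β: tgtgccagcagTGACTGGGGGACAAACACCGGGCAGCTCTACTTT
R2-2 β: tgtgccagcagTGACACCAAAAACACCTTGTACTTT
R2-8 β: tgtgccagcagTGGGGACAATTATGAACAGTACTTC
R2-18 β: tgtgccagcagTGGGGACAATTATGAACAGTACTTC
R2-26 β: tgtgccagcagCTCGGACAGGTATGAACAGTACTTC

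The α CDR3 sequences of the same clones show how little some of them differ, and capitals mark a base that differs from the commonest α sequence among clones of the same J gene, TRAJ42.
commonest α, in R1-2, R2-1, R2-2, R2-18 and R2-26: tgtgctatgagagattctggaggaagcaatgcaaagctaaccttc
R2-8 α: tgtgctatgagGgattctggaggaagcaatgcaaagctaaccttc
R1-1 α, with TRAJ49: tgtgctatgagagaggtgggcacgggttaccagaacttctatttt

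R2-8 and R2-18 had the same β CDR3 and differed by 1 base of the α CDR3 (A12G, counted from 1 at the 5′ end, R2-18 first). As each round pooled 10 mice, cells of 1 clone may come from more than 1 mouse.

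**Figure D1:**
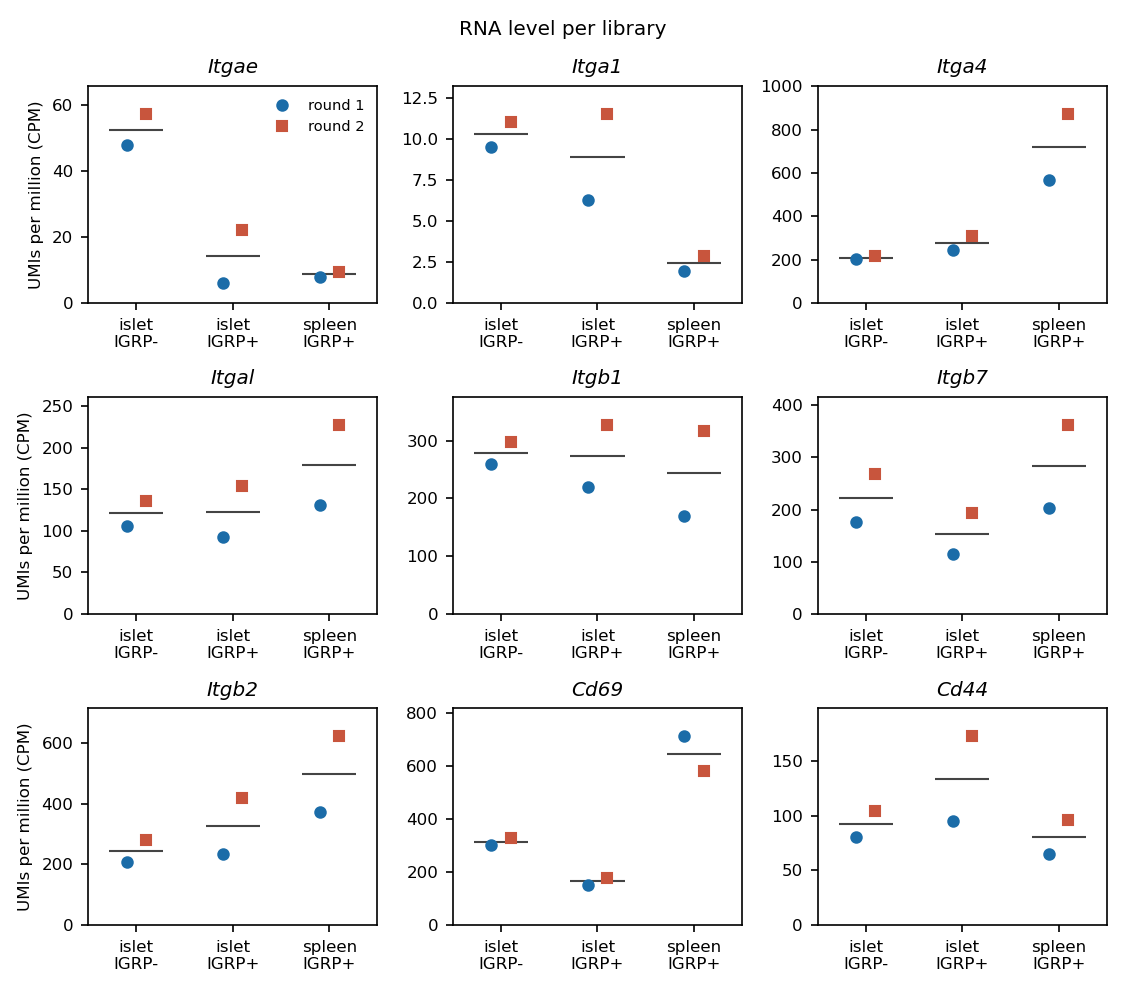
RNA level of each member in every library, as CPM (linear axis from 0, a separate scale per gene); circles are round 1, squares round 2 and lines the mean of the 2 libraries. Itgae stood at 47.7 and 57.1 CPM in islet IGRP- cells and at no more than 22.2 CPM elsewhere, Cd69 and Itga4 were highest in the spleen, and Itga1 was at 1.98 and 2.90 CPM in the spleen against 6.29 to 11.5 CPM in the islet libraries.

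Itgae, the α chain that pairs with β7, was highest in islet IGRP- cells. Its level in rounds 1 and 2 was 47.7 and 57.1 CPM in islet IGRP- cells, 6.12 and 22.2 CPM in islet IGRP+ cells, and 7.91 and 9.41 CPM in spleen IGRP+ cells. Both islet IGRP- libraries stood above all 4 tetramer-positive libraries, and the islet IGRP+ and spleen IGRP+ ranges overlapped. Behind the islet IGRP+ values were 36 and 177 UMIs, so that the rounds differed 3.62-fold there, the widest round difference of any member. Thinned to 1000 UMIs per cell, 4.06% and 4.77% of islet IGRP- cells, 0.509% and 2.38% of islet IGRP+ cells and 0.753% and 0.716% of spleen cells had an Itgae UMI; without thinning the shares ran from 1.82% to 14.3%.

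Itga1, the collagen-binding α1 chain, was found in both islet groups and rarely in the spleen. In rounds 1 and 2 it was at 9.54 and 11.1 CPM in islet IGRP- cells, 6.29 and 11.5 CPM in islet IGRP+ cells and 1.98 and 2.90 CPM in spleen IGRP+ cells. The islet groups overlapped and every islet library lay above both spleen libraries, which held 19 and 20 Itga1 UMIs. The thinned share of cells with a UMI was 1.06% and 1.05% in islet IGRP- cells, 0.679% and 1.22% in islet IGRP+ cells, and 0.116% and 0.295% in the spleen.

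Itga4, whose product pairs with β1 or β7, was highest in the spleen. It stood at 568 and 871 CPM in spleen IGRP+ cells, 243 and 308 CPM in islet IGRP+ cells and 201 and 216 CPM in islet IGRP- cells, and the 3 groups did not overlap. The thinned share of cells with a UMI followed the same order, at 43.3% and 55.0%, 22.6% and 26.4%, and 15.9% and 17.2%.

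Itgal and Itgb2, which together encode LFA-1, had their highest means in the spleen. Itgal was at 131 and 227 CPM there, at 92.5 and 154 CPM in islet IGRP+ cells and at 106 and 136 CPM in islet IGRP- cells, so all 3 groups overlapped. Itgb2 stood at 374 and 622 CPM in the spleen, 233 and 420 CPM in islet IGRP+ cells and 209 and 281 CPM in islet IGRP- cells, with the spleen above islet IGRP- cells and islet IGRP+ cells overlapping both.

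The β chains Itgb1 and Itgb7 can each pair with the α4 chain. Itgb1 was at 260 and 298 CPM in islet IGRP- cells, 220 and 326 CPM in islet IGRP+ cells and 170 and 316 CPM in the spleen, and all groups overlapped. Itgb7 stood at 176 and 268 CPM, 115 and 193 CPM, and 204 and 361 CPM in the same order, with the spleen above islet IGRP+ cells and islet IGRP- cells overlapping both. Itgae and its partner Itgb7 thus had different orders, since Itgae was at its lowest mean in the spleen, where Itgb7 had its highest.

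Cd69 was highest in the spleen and lowest in islet IGRP+ cells. It stood at 714 and 583 CPM in spleen IGRP+ cells, 301 and 328 CPM in islet IGRP- cells and 153 and 178 CPM in islet IGRP+ cells, with no overlap between any 2 groups. The thinned share of cells with a Cd69 UMI was 42.4% and 37.4% in the spleen, 23.9% and 25.7% in islet IGRP- cells and 15.0% and 15.6% in islet IGRP+ cells. Genes of the early response to cell dissociation, such as Fos and Jun, had a summed level with group means in the same order as Cd69 and overlapping ranges: the 10 listed genes, all with UMIs in every library, summed to 3541 and 3020 CPM in the spleen, 2647 and 3562 CPM in islet IGRP- cells and 1825 and 2780 CPM in islet IGRP+ cells. Junb, the member of that list with over 1000 CPM in every library, did not follow that order, at 1209 and 1115 CPM in the spleen, 1501 and 2119 CPM in islet IGRP- cells and 1075 and 1644 CPM in islet IGRP+ cells. The part of these genes in the Cd69 levels was not tested.

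Cd44 had its highest mean in islet IGRP+ cells, although the CD44 gate was applied to the spleen. It was at 95.1 and 173 CPM in islet IGRP+ cells, 80.9 and 104 CPM in islet IGRP- cells and 64.9 and 96.4 CPM in spleen IGRP+ cells, and all groups overlapped over both rounds. Within each round the order was the same, islet IGRP+ cells first and spleen cells last.

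**Figure D2:**
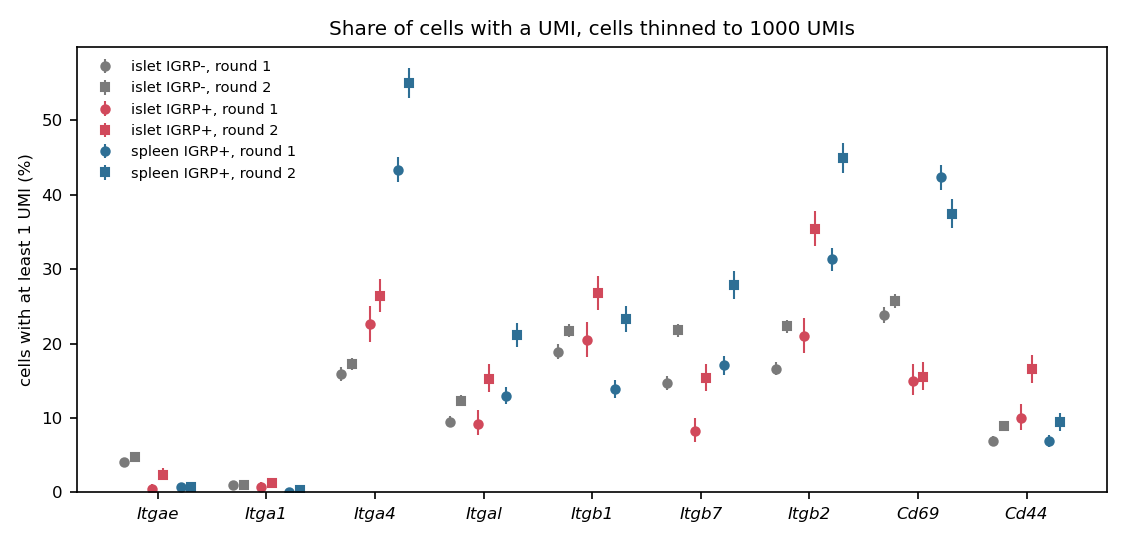
Percentage of cells with at least 1 UMI of each member after every cell was thinned to 1000 UMIs, per library (circles round 1, squares round 2); bars are exact 95% binomial intervals, which cover counting error only. For Itga4 the spleen reached 55.0% against at most 26.4% in the islets, and for Cd69 islet IGRP+ cells were at 15.0% and 15.6% against 42.4% and 37.4% in the spleen.

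Shares of cells with a UMI were compared at equal depth because spleen cells were shallower. Islet IGRP+ cells had the higher mean share for 4 of 9 members against spleen IGRP+ cells (Itgae, Itga1, Itgb1 and Cd44) and for 5 of 9 against islet IGRP- cells (Itga4, Itgal, Itgb1, Itgb2 and Cd44). Between 26 and 100 cells per library were shallower than 1000 UMIs and were left out. Without thinning, Itgb1 was detected in 51.6% and 61.5% of islet IGRP+ cells and 29.3% and 43.8% of spleen cells, and after thinning in 20.5% and 26.8% against 13.9% and 23.3%.

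Islet IGRP+ cells were first compared with islet IGRP- cells, cells of 1 tissue that shared all handling. None of the 9 members passed an adjusted p of 0.05 (edgeR quasi-likelihood test, Benjamini-Hochberg over 11277 genes), where 0.151% of all genes tested were higher and 1.04% lower in islet IGRP+ cells. Without adjustment, 2 of 9 members had p under 0.05, and so did 1982 of all 11277 genes tested. The 2 were Itgae with a log2 fold change of -1.93 (SE 0.46, adjusted p = 0.127) and Cd69 with -0.93 (SE 0.23, adjusted p = 0.133). The other 7 lay between -0.54 (SE 0.29, Itgb7) and 0.51 (SE 0.25, Cd44). DESeq2 called 2 of 9, Cd69 and Itgae, both lower, and 574 of all 11277 genes tested. With the round as a term in the edgeR fit, 6 of 9 were called, with Itga4, Itgb2 and Cd44 higher and Itgae, Itgb7 and Cd69 lower (adjusted p from 5.92e-05 to 0.0353; over all alternatives these 6 ran from 5.92e-05 to 0.998). The same fit called 3442 genes, against 134 without the term, over all genes tested.

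The islet groups were also compared in cells whose clone had at least 2 cells in the library, 1603 and 2524 islet IGRP- cells and 661 and 1177 islet IGRP+ cells. Among them, Itgae stood at 52.8 and 66.5 CPM in islet IGRP- cells and 4.50 and 20.9 CPM in islet IGRP+ cells. In the same cells Cd69 was at 241 and 242 CPM against 144 and 172 CPM, and Itga4 at 270 and 311 CPM against 246 and 302 CPM. The Itgae level was again higher in both islet IGRP- libraries, while Itga4, lower in islet IGRP- than in islet IGRP+ cells when all cells were used, was not lower here. In these cells edgeR called 0 of 9 members, and 2 of all 10556 genes tested. Itgae (log2 fold change -2.15, adjusted p = 0.826) and Cd69 (-0.54, adjusted p = 0.849) had an unadjusted p under 0.05, as did 546 of all 10556 genes tested.

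Islet IGRP+ and spleen IGRP+ cells have the same antigen specificity and differ in tissue. Relative to the spleen, Itga1 was higher and Itga4 and Cd69 were lower in islet IGRP+ cells, 3 of 9 members, where 13.7% of all genes tested were higher and 12.9% lower. Itga1 was 3.91-fold higher (log2 fold change 1.97, SE 0.30, adjusted p = 0.00843). Itga4 changed by -1.28 on the log2 scale (SE 0.19, adjusted p = 0.00855), and Cd69 by -1.90 (SE 0.23, adjusted p = 0.00494). All 3 differences had the same direction in both rounds, with log2 ratios of CPM of 1.67 and 1.99 for Itga1, -1.22 and -1.50 for Itga4, and -2.22 and -1.71 for Cd69.

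The remaining 6 members did not pass against the spleen. Cd44 had a log2 fold change of 0.82 (SE 0.25, adjusted p = 0.0586), Itgb7 of -0.77 (SE 0.30, adjusted p = 0.104) and Itgae of 0.77 (SE 0.47, adjusted p = 0.274). Itgb2, Itgal and Itgb1 were at -0.52, -0.44 and 0.28. With the round as a term in the edgeR fit, Cd44 and Itgae were called higher and Itgb7, Itgb2 and Itgal lower as well (adjusted p from 8.37e-05 to 0.0400). Over all alternatives these 5 ran from 8.37e-05 to 0.759. The fit with the round called 6215 of all 11277 genes tested. Without the round 1 spleen library Itga1 was no longer called (adjusted p = 0.0591 among alternatives from 4.33e-05 to 0.0591), and without the round 2 spleen library Itga4 was not (0.0521 among 7.26e-09 to 0.0521). Itgae had the opposite sign without the round 2 islet IGRP+ library, at -0.27.

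**Figure D3:**
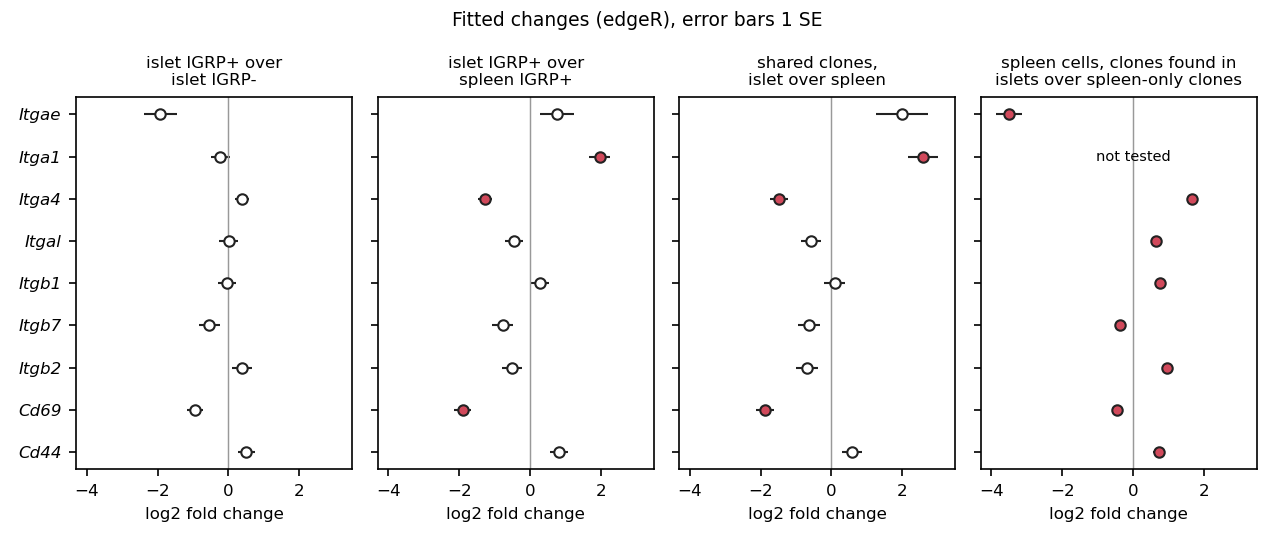
Fitted log2 fold change of each member (point) with 1 SE (bar) in 4 comparisons; red points passed an adjusted p of 0.05, white points did not, and the shared-clone and spleen panels sum cells by clone. Itga1 lay right of 0 and Itga4 and Cd69 left of 0 in both islet-over-spleen panels, and in the spleen panel Itga4 stood at 1.67 and Itgae at -3.50, with Itga1 not tested.

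Cells of 1 clone share their TCR, and the islet and spleen cells of the 66 clones found in both tissues were summed, so that both sums held the same receptors, in proportions that differed between tissues. These sums held 632 islet and 1375 spleen cells in round 1 and 1134 and 1445 in round 2. The same 3 members were called as for the whole libraries, where 8.65% of all genes tested were higher and 7.63% lower in the islet; the clone sums are part of the whole libraries and do not form a separate sample. Itga1 stood at 6.38 and 10.6 CPM in islet cells against 1.60 and 1.45 CPM in spleen cells of the shared clones, a log2 fold change of 2.57 (SE 0.42, adjusted p = 0.0186). The spleen values rested on 6 UMIs in each round.

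Itga4 was at 245 and 303 CPM in islet cells and 699 and 977 CPM in spleen cells of the shared clones (log2 fold change -1.48, SE 0.25, adjusted p = 0.0189). Cd69 was at 141 and 170 CPM in islet cells and 668 and 564 CPM in spleen cells (-1.88, SE 0.26, adjusted p = 0.0121). For both genes every islet sum lay below every spleen sum. Itgae was at 3.33 and 18.3 CPM against 2.94 and 2.90 CPM, so that the tissues differed in round 2 and hardly in round 1 (1.99, SE 0.74, adjusted p = 0.120).

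For the other 5 members the log2 fold changes within shared clones lay between -0.68 (SE 0.31, Itgb2) and 0.58 (SE 0.28, Cd44), and none passed. With the round as a term in the edgeR fit, Cd44 and Itgae were higher and Itgal, Itgb7 and Itgb2 lower in islet cells (adjusted p from 6.66e-07 to 0.000757). Over all alternatives these 5 ran from 6.66e-07 to 0.751. The fit with the round called 5094 of all 9960 genes tested. Itga1 was not called with equal numbers of cells per clone in both tissues (adjusted p = 0.0581) or without the round 2 islet sum (0.0501), among alternatives from 4.47e-08 to 0.0581, and Itga4 was not without the round 2 spleen sum (0.0685, among 4.34e-22 to 0.0685).

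**Figure D4:**
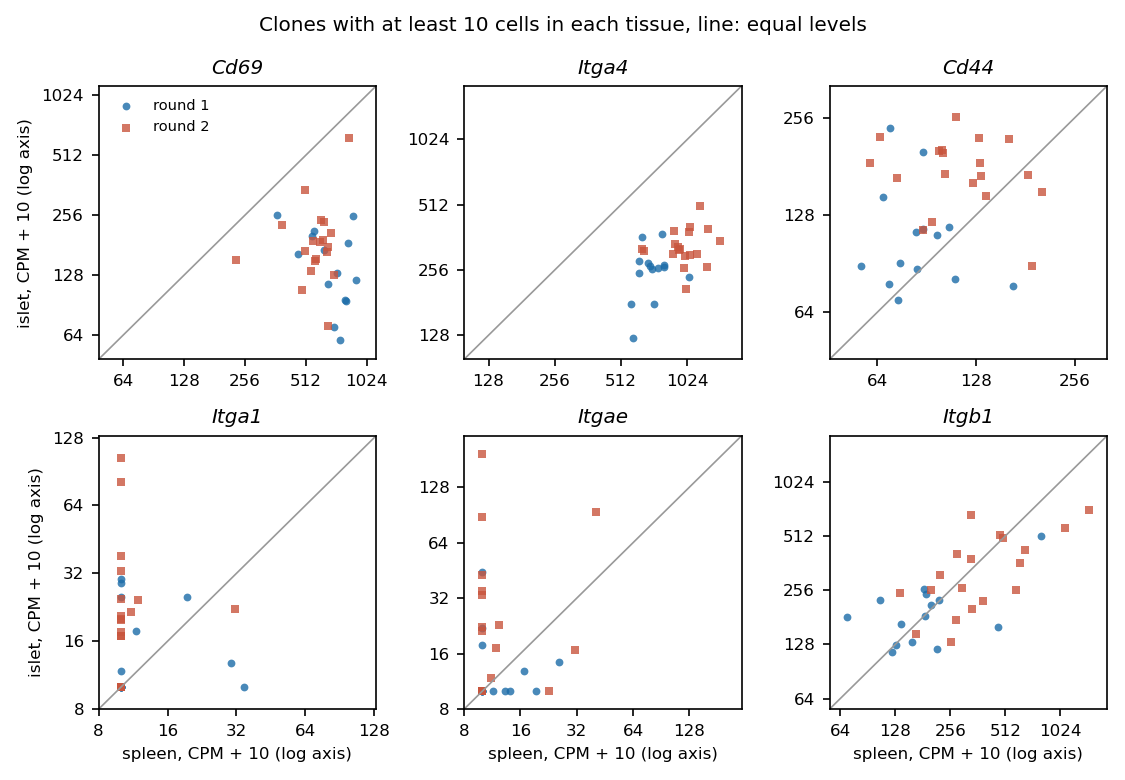
Each point is 1 clone with at least 10 cells in each tissue (circles, 14 clones of round 1; squares, 19 of round 2); axes give CPM + 10 in spleen and islet cells of the clone on log axes, and the line marks equal levels. All 33 clones lay below the line for Cd69 and Itga4, and 27 lay above it for Cd44. Itga1 had no UMI in the spleen cells of 26 clones and the islet cells of 12, and Itgae in those of 21 and 16.

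Clones with enough cells were then compared one by one. In all 33 clones with at least 10 cells in each tissue, Cd69 and Itga4 CPM were lower in islet than in spleen cells of the same clone. The clone log2 ratio (CPM + 10) of Cd69 ran from -3.65 to -0.43 with a median of -1.88, and that of Itga4 from -2.27 to -0.81 with a median of -1.53. Clone R1-2, with 116 islet and 232 spleen cells, had 86.1 CPM of Cd69 in the islets and 788 CPM in the spleen. Clones of a round share their libraries and are not replicates, so no test was made over them.

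Itgal, Itgb7 and Itgb2 were also lower in the islet cells of nearly all clones. Itgb7 was lower in 32 of 33 clones with a median log2 ratio of -0.90, and Itgal and Itgb2 each in 31 of 33 with medians of -0.70 for both. Cd44 was higher in the islet cells of 27 of 33 clones, with a median of 0.39. Itga1 was higher in the islet cells of 19 clones, lower in 3 and without a UMI in either tissue in 11. Itgae was higher in the islet cells of 14 clones, lower in 8 and without a UMI in either tissue in 11. Among the 14 clones of round 1, Itgae was higher in the islet cells of 3 and lower in 6.

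Itgb1 went either way between tissues, clone by clone. It was higher in the islet cells of 15 clones and lower in 18, with log2 ratios from -1.53 to 1.37 and a median of -0.03. Its level ran from 106 to 700.5 CPM across clones in the islets and from 60.0 to 1462 CPM in the spleen, and clones with high Itgb1 in one tissue tended to have it in the other: the correlation across clones of log2 CPM + 10 between tissues was 0.54 over 14 clones in round 1 and 0.65 over 19 clones in round 2. For the other 8 members that correlation within a round lay between -0.45 and 0.42. Clone R2-18 had 700.5 CPM in the islets and 1462 CPM in the spleen, whereas clone R1-2 had 117 and 120 CPM. These correlations are descriptions, since cells of all clones in a tissue and round shared 1 library, and some clones had as few as 10 cells in a tissue.

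Itgae in islet IGRP+ cells was unevenly spread over clones. The 3 clones R2-8, R2-18 and R2-26, shown above by sequence, held 94 of the 1598 islet IGRP+ cells of round 2 (5.88%) and 56 of the 177 Itgae UMIs (31.6%). Itgae was at 91.5 CPM in these cells and 16.4 CPM in the rest of the library. R2-8 had an Itgae UMI in 16 of 62 islet cells and in none of 30 spleen cells, R2-18 in 5 of 22 and 1 of 11, and R2-26 in 4 of 10 and 0 of 11. As a contrast, R2-1, with 193 islet cells, had 2 Itgae UMIs there, and R1-1, with 86 islet cells, had none. The 3 clones were picked for these values, which are given without a test. Sequences were not used in the choice, but how often other clones shared a β sequence was not counted. That R2-8 and R2-18 had the same β sequence is therefore a description only.

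Spleen IGRP+ cells were also split by whether their clone was found in the islets of the same round. Clones found in the islets were large (31 clones with 1375 cells in round 1 and 35 with 1445 in round 2), and those not found there were small: 248 of 259 spleen-only clones in round 1 and 161 of 184 in round 2 were single cells. A small clone has less chance of being sampled in a second tissue, so this split is also a split by clone size. The edgeR fit had the library as a term, as both arms come from the same libraries, and 8 of the 9 members were tested, since Itga1 had between 1 and 8 UMIs in the 4 sums.

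Cells of clones also found in the islets had 5 of the 8 tested members higher and 3 lower, where 8.87% of all genes tested were higher and 9.10% lower. Itga4 differed most among the higher ones, at 699 and 977 CPM against 163 and 295 CPM in spleen-only clones (log2 fold change 1.67, SE 0.10, adjusted p = 1.11e-19). Itgb2 rose by 0.95 (SE 0.10), Itgb1 by 0.76 (SE 0.11), Cd44 by 0.73 (SE 0.16) and Itgal by 0.66 (SE 0.12) on the log2 scale, with adjusted p from 2.46e-11 to 0.000402. Itgae was at 2.94 and 2.90 CPM in cells of the shared clones and 23.1 and 34.5 CPM in spleen-only clones (-3.50, SE 0.37, adjusted p = 4.61e-11), on 11 and 12 UMIs against 25 and 29. The 223 to 285 cells of spleen-only clones thus held more Itgae UMIs than the 1375 to 1445 cells of the clones found in the islets.

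Cd69 and Itgb7 were lower by small amounts, with log2 fold changes of -0.45 (SE 0.09, adjusted p = 0.000110) and -0.36 (SE 0.10, adjusted p = 0.00416). Cd69 stood at 668 and 564 CPM against 794 and 639 CPM, and Itgb7 at 197 and 349 CPM against 209 and 393 CPM. On plain CPM the log2 ratio was -0.25 and -0.18 for Cd69 and -0.09 and -0.17 for Itgb7 in the 2 rounds, smaller than the fitted values, which use TMM scaling. For the 5 members called higher, the plain ratios of both rounds were above the fitted value.

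These calls depended on the fit and on the single-cell clones. Over all genes tested, 211 of 9277 were called without the library as a term. Without the library as a term, Itga4 and Itgae were the 2 members called, and the other 6 had adjusted p from 0.178 to 0.731 (from 2.91e-21 to 1.000 over all alternatives). Leaving out clones of 1 cell removed all but 37 and 62 spleen-only cells. In that edgeR fit 0 of 8 members were called, and 25 of all 9031 genes tested. Itga4, at 0.65, and Itgae, at -2.81 on the log2 scale, had an unadjusted p under 0.05, as did 427 of all 9031 genes tested. Cd69 changed sign to 0.14. The spleen-only cells differed in other genes as well: Ccr7, a receptor that guides T cells to lymph nodes, stood at 296 and 412 CPM against 49.8 and 76.0 CPM. Their B cell marker sum was also higher, at 198 and 172 CPM against 43.6 and 41.0 CPM, nearly all of it Ighm (179 and 149 CPM against 36.7 and 34.5 CPM); the part of B cell RNA in these results was not tested.

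Detection in the same cells was described next, within a library and at equal depth. At 1000 UMIs per cell, 67 and 93 islet IGRP- cells had an Itga1 UMI, and Ccr7 was detected in 2.99% and 7.53% of them against 29.9% and 43.5% of the other cells. Cxcr6, a chemokine receptor of tissue T cells, was detected in 41.8% and 39.8% of the Itga1 cells against 13.4% and 14.8% of the others. The Itga1 cells of both rounds thus had fewer Ccr7 and more Cxcr6 detections. The exact 95% intervals, 0.364 to 10.4% and 3.08 to 14.9% for Ccr7 and 29.8 to 54.5% and 29.8 to 50.5% for Cxcr6, left out the share in the other cells. These intervals cover counting error only. Cells of a library are not replicates, so the intervals are no test of the difference.

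Islet IGRP- cells with an Itgae UMI were 257 and 421. Ccr7 was detected in 30.0% and 41.1% of them, close to the 29.6% and 43.2% of the other cells, and Cxcr6 in 22.6% and 21.4% against 13.3% and 14.7%. Itga1 was detected in 9 of these cells in each round, 3.502% and 2.14% against 0.954% and 0.999% of the other cells. In the round 2 islet IGRP+ library, 37 cells had an Itgae UMI, and 75.7% of them had Cxcr6 (interval 58.8 to 88.2%) against 32.1% of the others. These shares compare cells within a library, and since cells of 1 clone are not independent, the intervals are narrower than the true error. Before thinning, 88 cells of the round 2 islet IGRP+ library had an Itgae UMI, and 25 of them came from the 3 clones picked for Itgae. How many of the 37 cells came from these clones was not counted.

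Detection of the partner chains was compared in islet IGRP- cells, with intervals that again cover counting error only and are no test. Itgb7 was detected in 17.5% (interval 13.1 to 22.7%) and 28.03% (23.8 to 32.6%) of Itgae cells against 14.6% and 21.5% of the other islet IGRP- cells, so that the round 1 interval held the share of the others. It was detected in 15.0% (12.8 to 17.3%) and 25.1% (22.9 to 27.4%) of Itga4 cells against 14.6% and 21.1%, again within the interval in round 1. Itgb1 was detected in 38.8% (27.1 to 51.5%) and 33.3% (23.9 to 43.9%) of Itga1 cells against 18.7% and 21.6%. Cd69 was detected in 19.1% and 31.6% of Itgae cells against 24.1% and 25.4%, a difference of opposite sign in the 2 rounds. Within islet IGRP+ cells, Cd69 and Cd44 were detected together in 24 and 40 cells, and Cd44 was found in 13.6% and 16.5% of Cd69 cells against 9.39% and 16.5% of the others.

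Other genes of the same pathways, taken as lists, were compared between islet IGRP+ and spleen IGRP+ cells. Among other integrin chains, 2 of 8 tested were higher and 1 lower, where 13.7% of all genes tested were higher and 12.9% lower. Their median log2 fold change was 1.75, against -0.03 over all genes. Itgav, the αv chain, was higher (2.04, SE 0.20, adjusted p = 0.00307), at 105 and 109 CPM in islet IGRP+ cells and 29.1 and 26.1 CPM in the spleen. Itgb8, one of its partners, was also called, at 5.61 and 7.39 CPM against 0 and 0.290 CPM.

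Genes that carry signals from inside the cell to integrins were mostly not called. Of these, 1 of 23 tested was higher and 6 were lower (median -0.17, against -0.03 over all genes). Over all genes tested, 13.7% were higher and 12.9% lower. Rasgrp2, the exchange factor that activates Rap1, was at 65.8 and 55.8 CPM in islet IGRP+ cells and 279 and 315 CPM in the spleen (-2.18, SE 0.21, adjusted p = 0.00291). Apbb1ip, which encodes the Rap1 effector RIAM, was at 99.5 and 108 CPM against 357 and 412 CPM (-1.79, SE 0.15, adjusted p = 0.00236).

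Of the tissue residency genes 10 of 20 tested were higher and 2 lower (median 1.21), where 13.7% of all genes were higher and 12.9% lower, led by Litaf (3.78, SE 0.20), Xcl1 (3.35, SE 0.22) and Cxcr6 (2.88, SE 0.23), with adjusted p from 0.00120 to 0.00204. Of the egress and recirculation genes 1 of 12 was higher and 8 lower (median -1.42), among them Klf3 at 22.6 and 26.6 CPM against 283 and 340 CPM. S1pr1, the egress receptor that CD69 pulls from the surface, was at 15.8 and 15.4 CPM in islet IGRP+ cells, 149 and 176 CPM in islet IGRP- cells and 178 and 193 CPM in the spleen, so the islet IGRP+ libraries were lowest for both Cd69 and S1pr1.

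Within shared clones, with 8.65% of all genes higher and 7.63% lower, 2 of 4 other integrin chains were higher, 6 of 23 inside-out genes lower, 7 of 19 residency genes higher and 2 lower, and 2 of 12 egress genes higher and 7 lower. Against islet IGRP- cells, with 0.151% of all genes higher and 1.04% lower, 0 of 8 other integrin chains and 0 of 23 inside-out genes were called, 1 of 20 residency genes was lower (Tgfbr2, -1.28, SE 0.16) and 4 of 12 egress genes were lower, S1pr1 and Klf3 among them. Between the spleen clone sets, with 8.87% of all genes higher and 9.10% lower, 1 of 2 other integrin chains was lower (Itga6, -1.09, SE 0.16), 3 of 23 inside-out genes were higher and 3 lower, 7 of 19 residency genes were higher, and 3 of 12 egress genes were higher and 5 lower. Of the genes that link CD44 to the cytoskeleton or handle hyaluronan, 1 of 6 tested was higher in islet IGRP+ than in spleen cells, and 0 of 6 were called against islet IGRP- cells. For ligands of the members, 2 of 7 were higher and 1 lower (Icam2, -1.93, SE 0.18) in islet IGRP+ than in spleen cells. Against the spleen, 13.7% of all genes tested were higher and 12.9% lower.

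RNA of other pancreatic cells was present in the islet libraries. The 10 exocrine genes summed to 118 and 399 CPM in islet IGRP- cells, 52.7 and 152 CPM in islet IGRP+ cells and 5.62 and 6.51 CPM in the spleen. The 8 islet endocrine genes summed to 137 and 10.9 CPM, 5.61 and 13.9 CPM, and 0.104 and 0.145 CPM in the same order, with 133 CPM of Ppy in the round 1 islet IGRP- library. The 7 endothelial and stromal genes summed to at most 21.9 CPM in any library, and Pecam1 was the gene with most of it in each.

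Cells with at least 5 exocrine UMIs were then left out, a choice made after seeing the data. They were 87 and 297 islet IGRP- cells, 10 and 29 islet IGRP+ cells and 2 and 1 spleen cells, and 87.4% to 100% of them had both Cd3 and Cd8 UMIs. Without them the exocrine sum was 34.9 and 47.3 CPM in islet IGRP- cells and 35.0 and 34.5 CPM in islet IGRP+ cells. Itga1 was at 9.58 and 11.3 CPM in islet IGRP- cells, 6.35 and 11.8 CPM in islet IGRP+ cells and 1.98 and 2.90 CPM in the spleen, and the same 3 members were called against the spleen and within shared clones (edgeR, adjusted p for Itga1 of 0.00818 and 0.0175, within the ranges over alternatives given above).

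Over the 6 libraries, the genes whose log2(CPM + 1) followed a member most closely were named by Pearson correlation among 5632 or 5633 genes of at least 20 CPM on average. Among the 3 closest to each were Clcn3 and Rnf10 for Itgae (r of 0.995 and 0.989) and Pim3 and Orai1 for Itga1 (0.997 for both), and the 3 closest were Paxx, Epsti1 and Snrk for Cd69 (0.990 to 0.995) and Atp6v1a, Vbp1 and Ndfip2 for Cd44 (0.984 to 0.989). With 6 libraries in 3 groups and so many genes, values this near to 1 describe these libraries only.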

How the data were processed

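Raw UMI counts per gene and cell were deposited by the authors as 10x matrices, made with Cell Ranger (version 5.0.1 in the matrix headers; build mm10), and TCR contigs as annotation tables. Cells with under 5% mitochondrial UMIs and 200 to 3500 genes (islet) or 200 to 2000 genes (spleen) were kept. Doublets were not called beyond these limits. Cells with exactly 1 productive α and 1 productive β chain were joined into clones by identical CDR3 bases of both. UMIs were summed per library, or per library and clone set, and tested with edgeR 4.0.16 (TMM, filterByExpr, quasi-likelihood, Benjamini-Hochberg over all genes tested); the test was also run on simulated data. Islet IGRP+ cells were compared with both other groups in 1 fit of 6 libraries without a term for the round; the spleen clone sets were fitted with the library as a term. DESeq2 1.42.0 was an alternative. For shares, each cell was thinned to 1000 UMIs. CPM is UMIs per 1000000 UMIs of a library or sum, and the clone ratios use CPM + 10. Exact 95% binomial intervals cover counting error only. With 2 libraries per group, each a pool of mice, p-values of the islet and spleen comparisons measure the spread between pools. In the spleen clone split both sets come from the same 2 libraries and the library is a term. That term takes up differences in level between the 2 pools, and the p-values of the split rest on how the difference between sets varied between them. With 2 pools, edgeR estimates this variation by sharing information over genes. Very small p-values of the split therefore do not stand for many replicates.

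Same-round libraries came from the same mice. The paper's methods also give a different sequencing kit and different read lengths for the RNA libraries of the second round. Deviations of same-round libraries went together (correlation over 11277 genes of the round differences, 0.707 to 0.764 between groups), so the numbers pair the libraries. Mice and sequencing cannot be told apart in that pairing. The main islet and spleen fits left it out, and fits with the round as a term are given as alternatives.

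Named were all 9 members, at most 3 genes per list and comparison with the largest change among those called, markers of other cells, and the 3 genes most like Itgae, Itga1, Cd69 and Cd44. A few genes that this rule names are not reported here. The members and lists were chosen with earlier results of these data known. Alternatives were another scaling, DESeq2, no filter on low counts, other cell sets (one, without cells of 5 or more exocrine UMIs, added after seeing the data), a term for the round, and leaving out each library. No columns of samples outside the series were found. CDR3 sequences were read from the deposited contig tables, and gene positions from GENCODE vM21 on GRCm38.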

Additional observations from a re-analysis of the deposited data

How the results depend on the processing

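Over the alternatives, 448 of 528 fitted log2 fold changes of members kept their direction and their side of the threshold, 23 lost and 28 gained a call, 12 values without a test moved by more than the spread, and 17 changed sign; of shares of cells, 85 of 108 moved by less than the spread. Where a library was left out, the lone library of its group was assumed to vary like the others. The cause of the changes below was not tested.

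Among all genes, calls of islet IGRP+ against islet IGRP- cells numbered 134, and 3442 with the round as a block (replicate block), 574 with DESeq2, 711 without the filter on low counts, 24 with only these groups fitted, 48 in thinned cells, 2 in clones of at least 2 cells and 0 to 30 with a library left out; 0 members were called, against 6 with the block, 2 with DESeq2 and 2 without the filter. Against the spleen there were 3004 calls, 6215 with the block, 1639 in thinned cells and 892 to 2050 with a library left out; 3 members were called, against 8 with the block, 5 without the filter and 2 to 5 with a library left out (5 without the round 1 islet IGRP+ library). Within shared clones there were 1622, 5094 with the block, 2916 without the filter, 862 in thinned cells and 989 to 1835 with a sum left out; 3 members were called, 8 with the block and 2 to 5 with a sum left out (5 without the round 1 islet sum). Between spleen clone sets there were 1667, 211 without the replicate block, 478 with DESeq2, 536 in thinned cells and 25 in clones of at least 2 cells. Of the members, 8 were called, against 2 without the block, 5 with DESeq2 and 0 in clones of at least 2 cells. At an unadjusted p under 0.05, 2 members and 427 of all 9031 genes tested passed in clones of at least 2 cells.

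The log2 fold changes that changed sign were all of members not called under that setting. For islet IGRP+ against islet IGRP- cells these were Itga1 (-0.59 to 0.052 with a library left out, positive without the round 1 islet IGRP+ library), Itga4 (-0.0033 in clones of at least 2 cells), Itgb1 (-0.22 to 0.12 with a library left out, positive without the round 1 islet IGRP+ library, and 0.12 in thinned cells) and Itgal (-0.26 to 0.24 with a library left out, -0.011 with the block, -0.012 without the filter, -0.046 with no upper limit on genes, -0.024 in cells with Cd3 and Cd8 UMIs and -0.25 in clones of at least 2 cells). Against the spleen they were Itgae (-0.27 to 1.32 with a library left out, negative without the round 2 islet IGRP+ library) and Itgb1 (-0.021 to 0.63, negative without the round 1 spleen library), within shared clones Itgb1 (-0.18 to 0.43 with a sum left out and -0.024 with equal cells per clone), and between spleen clone sets Cd69 (0.14 in clones of at least 2 cells). The Itgae fold change of islet IGRP+ against islet IGRP- cells was -1.35 without the round 1 and -2.97 without the round 2 islet IGRP+ library.

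Itga1 in the spleen rested on 19 and 20 UMIs, and Itgae in islet IGRP+ cells on 36 and 177; 3 UMIs, the limit set for a count of 0, came to 0.0741 to 0.510 CPM over the 6 libraries. Leaving out cells with 5 or more exocrine UMIs, added after seeing the data, changed no call of a member.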
